A study of Mus musculus with 10 samples.

Results

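Ionotropic glutamate receptors of the NMDA and kainate classes were followed at the level of their mRNAs in hippocampi of female P301S mice given dihydrotestosterone (DHT) or a void implant. The members are the genes with the symbols Grin1, Grin2a, Grin2b, Grin2c, Grin3a, Grik1, Grik2, Grik3, Grik4 and Grik5, found by their Ensembl identifiers, which is 10 of the 56884 genes in the count table. All 10 passed the filter on low counts, which left 17622 genes for testing. The void group held 5 mice with an empty implant and the DHT group held 5 mice whose SILASTIC tubing was packed with 10 mm of DHT, an androgen that aromatase cannot turn into estrogen. Every mouse was an ovary-intact PS19 female (P301S line), which carries human 1N4R Tau with the P301S mutation under the mouse Prnp promoter, so the controls carried the transgene too and no mouse without it was included. Implants were placed at 6 months of age for 12 weeks, and hippocampi were taken at 9 to 9.5 months, 1 library per mouse.

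NMDA receptors are tetramers that open only when glutamate and a co-agonist, glycine or D-serine, are bound together and depolarization has relieved the magnesium block, and the calcium they admit triggers long-lasting changes in synaptic strength. GluN1, encoded by Grin1, is the obligatory subunit, the GluN2 subunits set the kinetics, and GluN3 subunits lower calcium entry. Kainate receptors are tetramers as well: GluK1 to GluK3 form channels of their own, whereas GluK4 and GluK5 bind glutamate with high affinity and need one of the other subunits to reach the surface. In the hippocampus, kainate receptors are best known at the mossy fiber synapses between dentate granule cells and CA3 pyramidal cells and on interneurons.

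The subunits share one ancestral channel, which shows in the codons for the conserved stretch of the third membrane segment that forms the channel gate. These 27 bases of coding sequence, from the longest coding transcript of each gene shown, in GENCODE M21 (build GRCm38), are shown because they belong to a conserved part of the channel, and show how far the mRNAs can be told apart even there. Capitals mark bases that differ from Grin1, and the range is given for the plus strand of the genome while the bases read 5′ to 3′ along the mRNA.
Grin1 (chr2:25297199-25297225, minus strand, exon 15 of 21): tcctacactgccaacctggcagccttc
Grin2a (chr16:9653447-9653473, minus strand, exon 8 of 12): AGTtacacAgccaacctggcTgccttc
Grin2c (chr11:115253749-115253775, minus strand, exon 9 of 13): AGctacacGgccaaTctggcagccttc
Grin3a (chr4:49770470-49770496, minus strand, exon 3 of 9): AcAtacacAgcGaacTtggcTgcTGtc
Grik1 (chr16:87936009-87936035, minus strand, exon 14 of 18): tcctacactgccaacctggcTgccttc
Grik2 (chr10:49240690-49240716, minus strand, exon 13 of 16): tcGtaTacCgcTaacctAgcCgccttT
Grik3 (chr4:125694042-125694068, plus strand, exon 13 of 16): tcctacacGgccaacctggcTgccttc
Grik4 (chr9:42543869-42543895, minus strand, exon 15 of 19): tcctacacGgccaacctggcagccttc
Grik5 (chr7:25015919-25015945, minus strand, exon 16 of 20): tcctacacGgccaacctggcTgccttc
Of the 27 bases, Grin3a differed from Grin1 at 8 bases while Grik1 and Grik4 differed at 1. Across the annotated transcripts of the 45 pairs of members, the longest run of identical bases was between 12 and 46 bases, the latter shared by Grik2 and Grik3. Sequence shared with genes outside the family was looked for in windows of 100 bases, which is longer than any run shared by 2 members. The windows came from the 1 transcript of each gene with the longest coding sequence, 4296 windows for Grin2a and 23961 for Grin2b. The shares are therefore of that transcript and not of all annotated exons. For Grin2a, 44.8% of the windows of its coding transcript recurred in the processed pseudogene Gm7328, whose raw counts ranged from 12 to 42 against 14354 to 32517 for Grin2a. For Grin1, 8.52% of the windows lay in the antisense gene Grin1os, with raw counts from 14 to 102. For Grin2b, 0.184% lay in Gm14329, a noncoding RNA gene on the opposite strand, with 0 to 10 counts. The antisense gene Gm26653, with 20 to 56 counts, also overlaps exons of Grin2b. How the authors treated reads with several matches or reads from the opposite strand is not given in the sources used here. Grin1, Grin2a and Grin2b are therefore less certain by the share that such reads could move. The other 7 members shared no such window in the transcript searched.

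Total counts ranged from 27188854 to 47113661 in the void group and from 33523527 to 45947784 in the DHT group, and the lowest raw count of a member in any mouse was 484, for Grik1. Markers of the hippocampal fields were abundant: the dentate gyrus list summed to between 464 and 722 CPM (counts scaled to the TMM-normalized library total) in void mice and between 466 and 687 in DHT mice. The cerebellar granule cell list summed to 36.0 to 54.2 CPM with void and 26.1 to 50.3 with DHT. The list of thalamus and striatum summed to 190 to 231 CPM with void and 215 to 288 with DHT. Of its 9 genes, 4 had a positive and 5 a negative log2 fold change, and 1, Ppp1r1b, was called higher. Microglia markers were called higher for 7 of 9 genes, and their sum was 501 to 602 CPM with void and 748 to 1177 with DHT. Choroid plexus markers were called higher for 5 of 12 genes, with sums from 353 to 3176 CPM with void and from 3826 to 5494 with DHT. The summed pan-neuron markers lay between 10663 and 11622 CPM with void and between 9519 and 11494 with DHT. All 16 of these neuron genes had a negative log2 fold change, with a median of -0.10, and 0 were called. Of 7 excitatory neuron markers, 5 were positive and the median was 0.03. Their sum was 1920 to 2264 CPM with void and 1700 to 2469 with DHT. In bulk tissue, fewer neurons and less RNA per neuron cannot be told apart. The part that these shifts have in the values of the receptor genes was not tested. The S numbers in the sample labels all run lower for void than for DHT mice, so any order of handling that they stand for cannot be told apart from treatment.

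Per length, Grin2b, Grin1, Grik5 and Grin2a formed an upper tier and the other 6 members a lower one. In void mice, the level per kilobase of the union of annotated exons was 55.6 ± 9.93 CPM (SD, n = 5) for Grin2b, 42.6 ± 4.41 for Grin1, 35.9 ± 4.57 for Grik5 and 35.7 ± 5.91 for Grin2a. Each of these neighbours overlapped with the next, and Grik5 exceeded Grin2a in 3 of 5 void mice. A gap without overlap followed, down to Grik4 at 10.8 ± 1.93 CPM per kilobase and Grik3 at 9.46 ± 0.569. Grik2 was at 7.54 ± 0.573, Grin2c at 7.18 ± 0.762 and Grin3a at 6.50 ± 0.335 CPM per kilobase, each overlapping with the next. Grik4 and Grik3 overlapped as well, whereas Grik3 and Grik2 did not. Grik1, which encodes the subunit GluK1 that hippocampal interneurons are known for, was lowest at 2.91 ± 0.275 CPM per kilobase, below every other member in each void mouse. In DHT mice the same 4 genes led in the same order, and Grin2c stood ahead of Grik3 and Grik2, which it exceeded in the mean at 8.37 ± 1.69 CPM per kilobase (SD, n = 5).

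The length used changed the top of this order. With the longest annotated transcript in place of the union of exons, Grin1 led at 96.6 ± 10.0 CPM per kilobase in void mice, with no overlap with Grin2b at 57.4 ± 10.2 (SD, n = 5 each). In void mice Grin3a moved from the ninth place to the sixth. Both tiers and the last place of Grik1 were the same with either length. Levels per length therefore compare members only coarsely.

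**Figure D1:**
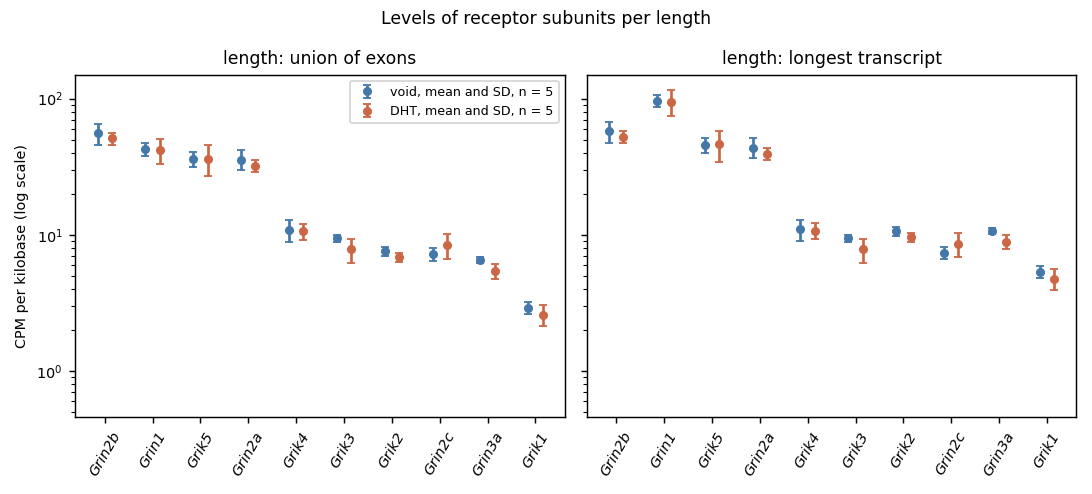
Level of each subunit mRNA in CPM per kilobase (log axis) with the union of exons (left) or the longest transcript (right) as length, mean and SD of 5 void (blue) and 5 DHT (orange) mice. Grin2b, Grin1, Grik5 and Grin2a stand above the other 6 genes with either length, and Grik1 is lowest.

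With DHT, none of the 10 receptor genes passed edgeR's quasi-likelihood test at the Benjamini-Hochberg threshold of 0.05: 0 were higher and 0 were lower, with 2 at an unadjusted p under 0.05, both lower. Of all genes tested, 5.22% were called higher and 0.261% lower, and 17.4% had an unadjusted p under 0.05, 13.1% higher and 4.22% lower. DESeq2 called 1 member, Grin3a, as lower, where it called 1.16% of the 20054 genes with an adjusted p lower and 6.12% higher. The log2 fold changes of the members ran from -0.28 to 0.22 with a median of -0.13, against a median of 0.01 over all genes tested, and 8 of the 10 were negative. Scaling to the pan-neuron markers raised the median of all genes to 0.14 and that of the members to about zero (-0.00413), with 5 members negative and 5 positive.

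Grin3a, which encodes GluN3A, the subunit of juvenile synapses that binds glycine and lowers calcium permeability, had the lowest p of the members. Its levels in void replicates 4, 5, 9, 10 and 11 were 77.8, 79.5, 80.5, 75.1 and 86.2 CPM. In DHT replicates 1, 2, 3, 5 and 6 they were 52.4, 70.8, 70.0, 68.7 and 70.3 CPM. Every DHT mouse lay below every void mouse, a separation in this direction that 0.88% of all tested genes showed (5.39% were separated in the other direction). The log2 fold change was -0.26 (standard error 0.08, 95% interval -0.44 to -0.09, adjusted p = 0.0922, edgeR's quasi-likelihood test), and the two-sided exact permutation test of this gene alone gave p = 0.00794, the smallest that 5 mice against 5 can give. DHT replicate 1 stood far below the other DHT mice, and without it the log2 fold change was -0.22 (edgeR's adjusted p = 0.0751). The adjusted p was under 0.05 with DESeq2 (0.0199) and with offsets for GC content (0.0421). It rose to 0.315 with scaling to neuron markers and to 0.917 when the choroid plexus score entered the model. The choroid plexus sums of the groups did not overlap, and 0 genes in all were called in that last fit. The fit with this score therefore cannot tell the score apart from treatment.

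Grik3, which encodes GluK3, a presynaptic kainate receptor subunit of low glutamate sensitivity, was the other member with an unadjusted p under 0.05. Void replicates 4, 5, 9, 10 and 11 had 85.3, 80.1, 81.4, 84.5 and 93.2 CPM of Grik3, within a narrow range. The DHT replicates 1, 2, 3, 5 and 6 had 51.4, 66.9, 65.1, 78.4 and 88.4 CPM. Of the DHT mice, 4 lay below every void mouse and DHT replicate 6 lay within the void range. The log2 fold change was -0.28 (standard error 0.12, 95% interval -0.54 to -0.02), with an adjusted p of 0.245 in edgeR. Offsets for GC content, added after the data were seen, brought edgeR's adjusted p to 0.0444 at a log2 fold change of -0.34. In that fit 1.7% of all genes were called lower, against 0.261% without offsets. The adjusted p of Grik3 was 0.128 with DESeq2 and 0.305 in edgeR with scaling to neuron markers. With the choroid plexus score in the model it was 0.968, in a fit that called 0 genes.

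**Figure D2:**
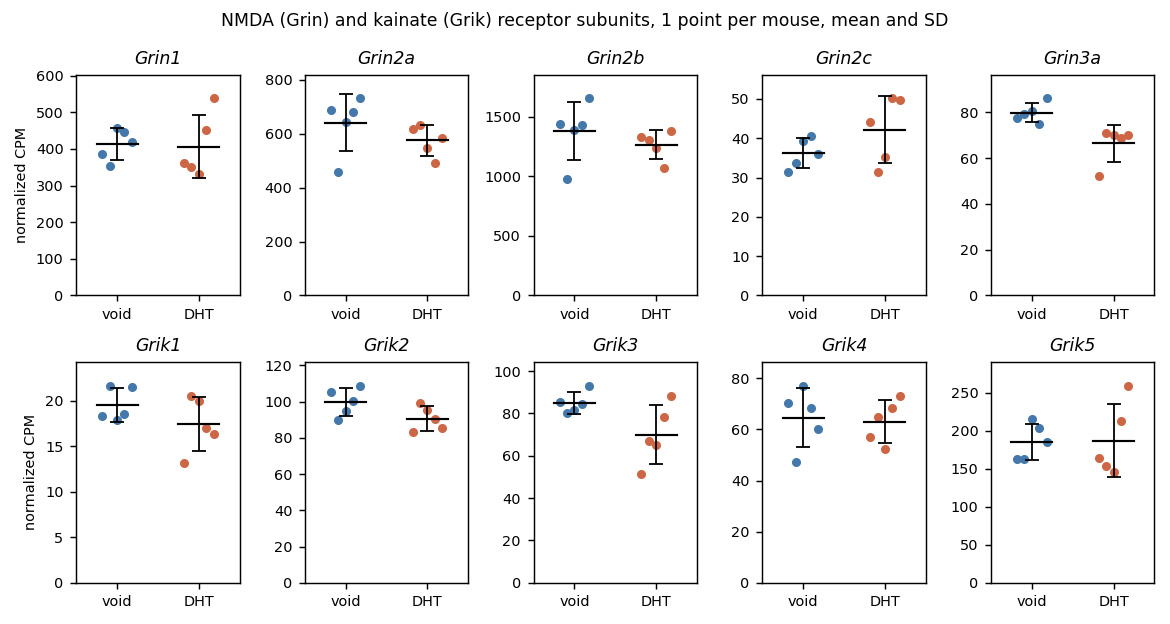
Normalized CPM of each receptor subunit gene in every mouse (points, blue void and orange DHT) with the mean and SD of 5 mice per group, each panel on its own axis from 0. For Grin3a all DHT mice lie below all void mice, for Grik3 4 of 5 do, and for the other 8 genes the groups overlap more widely.

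Among the remaining NMDA receptor genes, Grin1 was at 413 ± 42.8 CPM in void mice and 407 ± 87.1 in DHT mice (SD, n = 5 each). Its values in the void mice (replicates 4, 5, 9, 10 and 11) were 387, 354, 457, 448 and 420 CPM, and in the DHT mice (replicates 1, 2, 3, 5 and 6) 362, 351, 330, 451 and 539 CPM. The DHT values spanned the whole void range, with DHT replicate 6 above and DHT replicates 2 and 3 below all void mice. The log2 fold change of Grin1 was -0.02, with a 95% interval from -0.30 to 0.26, and its sign turned positive in 5 of the 18 alternatives, scaling to neuron markers (0.09) included.

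Grin2a and Grin2b encode GluN2A and GluN2B, of which GluN2B prevails in the young forebrain and GluN2A takes over much of its place as synapses mature. Grin2a measured 687, 459, 643, 679 and 731 CPM in void replicates 4, 5, 9, 10 and 11. With DHT it measured 618, 633, 546, 492 and 585 CPM in replicates 1, 2, 3, 5 and 6. Grin2b measured 1444, 980, 1393, 1431 and 1657 CPM in the same void mice and 1332, 1309, 1236, 1067 and 1385 CPM in the DHT mice. Void replicate 5 was lowest of all mice for both genes, and the DHT mice lay inside the void range throughout. The log2 fold changes were -0.16 for Grin2a (95% interval -0.41 to 0.10) and -0.13 for Grin2b (95% interval -0.39 to 0.14). Without void replicate 5 they were -0.25 for Grin2a and -0.23 for Grin2b (edgeR's adjusted p = 0.0923 and 0.161), and without void replicate 11 Grin2b was at -0.08. Both genes moved together from mouse to mouse, and their log2 ratio was -1.11 ± 0.0442 with void and -1.14 ± 0.0747 with DHT (n = 5 each, SD). The difference of -0.03 in this ratio was within the spread (two-sided exact permutation test, p = 0.468, and 0.819 after adjustment over 7 ratios).

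Grin2c encodes GluN2C, which is most abundant in the cerebellum, and had the only log2 fold change above 0.1 among the members, 0.22 (95% interval -0.06 to 0.51, edgeR's adjusted p = 0.447). It was at 31.4, 33.6, 39.4, 40.5 and 35.9 CPM in void replicates 4, 5, 9, 10 and 11, and at 44.2, 31.5, 35.2, 50.2 and 49.7 CPM in DHT replicates 1, 2, 3, 5 and 6. DHT replicates 1, 5 and 6 exceeded every void mouse, whereas DHT replicates 2 and 3 lay inside the void range. Leaving out DHT replicate 5 lowered the log2 fold change to 0.11, and leaving out DHT replicate 2 raised it to 0.31. Summed astrocyte markers were 2050 to 2703 CPM with void and 2572 to 3603 with DHT, with 1 of 8 genes, Gfap, called higher, and their part in the Grin2c values was not tested.

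The channel-forming kainate receptor subunits besides Grik3 were Grik1 and Grik2. Grik2, the main kainate receptor gene of CA3 pyramidal cells, was at 105, 90.1, 94.9, 100.1 and 109 CPM in void replicates 4, 5, 9, 10 and 11. In DHT replicates 1, 2, 3, 5 and 6 it was at 83.0, 99.3, 95.5, 90.3 and 85.3 CPM. The groups overlapped, with DHT replicates 1 and 6 under all void mice. For Grik2 the log2 fold change was -0.14 with the narrowest interval of the members, -0.29 to 0.01 (edgeR's adjusted p = 0.340). Grik1 was at 18.4, 21.7, 17.9, 18.5 and 21.5 CPM with void and at 13.2, 20.6, 19.9, 17.0 and 16.3 with DHT in the same order of mice, a log2 fold change of -0.17 (95% interval -0.42 to 0.09). Its groups overlapped as well, and DHT replicate 1 was lowest. Summed inhibitory neuron markers were 851 to 911 CPM with void and 661 to 957 with DHT, where DHT replicate 1 was lowest too. Of these 8 genes, 7 had a negative and 1 a positive log2 fold change, with a median of -0.11, and 0 were called. Their part in the Grik1 values was not tested.

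The high-affinity subunits showed no difference beyond the spread. Grik4, which is enriched in CA3, was at 70.4, 47.3, 77.2, 68.5 and 60.1 CPM in void replicates 4, 5, 9, 10 and 11. With DHT it was at 56.9, 65.0, 52.2, 68.2 and 72.9 CPM in replicates 1, 2, 3, 5 and 6, all inside the void range. For Grik4 the log2 fold change was -0.04 (95% interval -0.32 to 0.24), and -0.36 when the choroid plexus score entered the model (edgeR's adjusted p = 0.811). That fit called 0 genes in all and cannot tell the score apart from treatment. The 6 CA3 markers with a row in the table summed to 341 to 432 CPM with void and 330 to 431 with DHT, and void replicate 5 was lowest of the void mice for that sum as well as for Grik4. Grik5 was at 162, 163, 215, 203 and 185 CPM in the void mice and at 164, 154, 145, 212 and 259 CPM in the DHT mice. Its log2 fold change of 0.01 had the widest interval of the members, -0.32 to 0.34, and turned negative in 10 of the 18 alternatives.

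**Figure D3:**
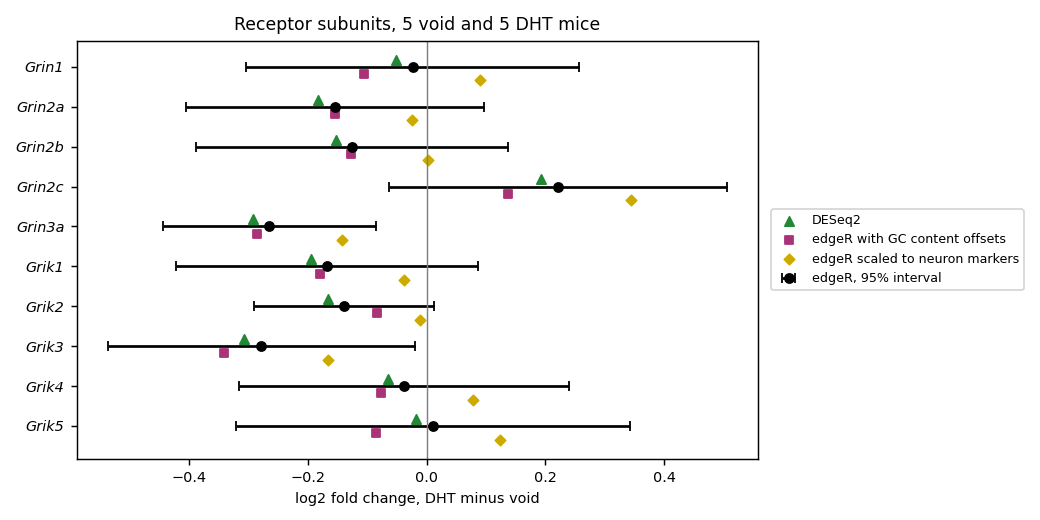
Log2 fold change, DHT minus void, of the 10 receptor genes from edgeR with its 95% interval (black), and the estimates of DESeq2 (green triangles), edgeR with GC content offsets (purple squares) and edgeR scaled to neuron markers (yellow diamonds). The intervals of Grin3a and Grik3 exclude 0 before adjustment, and scaling to neuron markers moves all 10 genes upward.

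Because subunits assemble with each other, the ratio between members within a mouse was compared too, a quantity that does not depend on scaling between libraries. The genes of a pair can differ in GC content (61.7% for Grik5, 37.9% for Grik2), and its part in the ratios was not tested. Of 7 ratios, 0 had a p under 0.05 in a two-sided exact permutation test, and the lowest was 0.143 for Grin2c to Grin2a. That log2 ratio was -4.13 ± 0.272 with void and -3.79 ± 0.393 with DHT (n = 5 each, SD), 0.34 higher with DHT. The Grin3a to Grin1 ratio was -2.37 ± 0.171 with void and -2.60 ± 0.307 with DHT on the log2 scale (exact permutation p = 0.183). The Grik3 to Grik2 ratio was -0.23 ± 0.0484 with void and -0.39 ± 0.308 with DHT (exact permutation p = 0.262), in which DHT replicates 1, 2 and 3 lay below all void mice and DHT replicate 6 above them. Adjusted over the 7 ratios, these 3 had p = 0.611 each by the same exact test. For Grik1 to Grik2, Grik5 to Grik2 and Grik4 to Grik5 the differences were -0.04, 0.12 and -0.01 on the log2 scale, and the groups overlapped in each.

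For the members richest in G and C, the spread within groups was narrower once base composition was taken into account. Grin2c, Grik5 and Grin1 had the highest GC content of the members, 62.1%, 61.7% and 59.4% of their longest transcript, and Grik2 the lowest with 37.9%. Slopes on GC content of log2 CPM, less each gene's mean over the 10 mice, were fitted over the tested genes with a GC content. The slope was 0.29 and 0.18 per 10 percentage points in DHT replicates 6 and 5 and 0.14 in void replicate 9. In the other 7 mice it lay between -0.15 and 0.02. Grin1 and Grik5 were highest in DHT replicate 6, and across the 10 mice their log2 CPM, centred within groups, had a Pearson correlation of 0.987, and of 0.889 with offsets for GC content. This is a description over mice that share these library properties. These offsets, added after the data were seen, brought the SD of log2 CPM within groups from 0.28 to 0.07 for Grik5, from 0.23 to 0.08 for Grin1 and from 0.24 to 0.14 for Grin2c. For Grik2 the SD was larger with the offsets, 0.14 against 0.11. For Grin2a and Grin2b it was 0.22 in both cases and 0.22 against 0.23, and their correlation of 0.962 became 0.971. With these offsets 2 members, Grin3a and Grik3, were called lower and none higher, where 1.7% of all genes were called lower and 7.04% higher in the same fit, both above the shares without offsets.

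**Figure D4:**
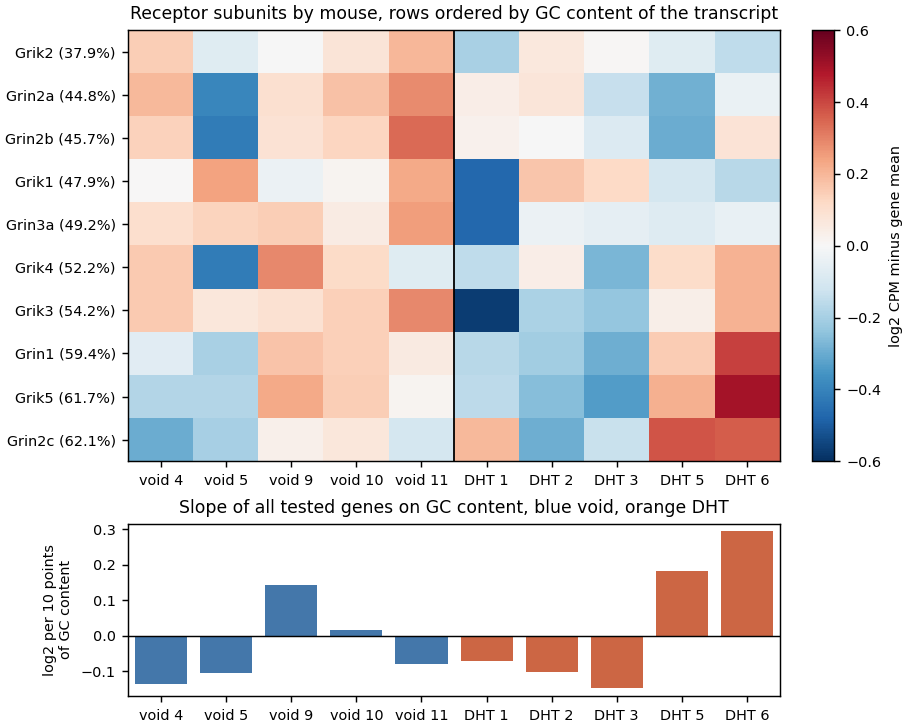
Top, log2 CPM minus the gene's mean for the 10 receptor genes (rows, ordered by GC content of the longest transcript, in percent) in each mouse (columns, void left and DHT right of the line). Bottom, slope on GC content of log2 CPM minus the gene's mean in each mouse, over the tested genes with a GC content. Grin1, Grik5 and Grin2c at the bottom of the map are high in DHT replicates 5 and 6, where the slope is steepest. Grin3a, Grik1, Grik2 and Grik3 are lowest in DHT replicate 1.

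Genes that belong to the same receptors or act with them were counted on lists chosen for their function. Of 69 such genes, 66 were tested, and 0 were called higher and 0 lower by edgeR's quasi-likelihood test (2 and 12 at an unadjusted p under 0.05, against 13.1% and 4.22% of all genes). DESeq2 called 7 of them lower, against 1.16% of all genes. Their median log2 fold change was -0.06, with 48 negative and 18 positive. In the family beyond the members, Grin2d and the delta receptor gene Grid1 had log2 fold changes of 0.10 and -0.10, and Grin3b, with 0.0762 ± 0.0217 CPM in void mice (SD, n = 5), did not pass the filter. The lowest p among the AMPA and delta receptors belonged to Gria3, at 297 ± 20.2 CPM in void mice and 262 ± 12.3 in DHT mice (log2 fold change -0.18, edgeR's adjusted p = 0.115). It was followed by Gria4, at 96.6 ± 14.2 and 79.7 ± 9.59 CPM (SD, n = 5 each), with a log2 fold change of -0.28 and an adjusted p of 0.185 from edgeR. Of the 18 alternatives, run with edgeR or DESeq2, 1 had an adjusted p under 0.05 for Gria3 (0.0432) and 0 did for Gria4.

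Of the 21 auxiliary, scaffold and trafficking partners, 17 had a negative log2 fold change, with a median of -0.11. Neto1 and Neto2, auxiliary proteins of kainate receptors, had values of -0.05 and -0.07 on that scale. The lowest p was that of Kif17, the kinesin that carries GluN2B along dendrites, at 18.97 ± 2.20 CPM in void mice and 14.7 ± 1.99 in DHT mice (log2 fold change -0.37, edgeR's adjusted p = 0.0749). Over the 10 fits without one mouse, the edgeR adjusted p of Kif17 ranged from 0.0375 (without DHT replicate 5) to 0.142. Kcnma1, a calcium-activated potassium channel, had a log2 fold change of -0.20 and an adjusted p of 0.0982 in the main edgeR fit. Of the 18 alternatives, run with edgeR or DESeq2, 2 had an adjusted p under 0.05 for Kif17 and 2 for Kcnma1. The adjusted p ranged from 0.0129 to 0.745 for Kif17 and from 0.0196 to 0.970 for Kcnma1 over these alternatives.

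On the list of co-agonist and glutamate supply, 12 of 14 genes were tested and 7 were positive. Slc7a10, the transporter of D-serine, was at 24.2 ± 6.92 CPM in void mice and 33.8 ± 5.64 in DHT mice (n = 5 each, SD). The log2 fold change was 0.48 (edgeR's adjusted p = 0.156). Without void replicate 9, the mouse with the most Slc7a10 among the void mice, its edgeR adjusted p was 0.0126 and its log2 fold change 0.67. These were the extremes of the 10 fits without one mouse, which ranged to an adjusted p of 0.352 and a log2 fold change of 0.38. With the choroid plexus score in the model the log2 fold change of Slc7a10 was 0.06, in a fit that cannot tell the score apart from treatment. Slc17a6, a vesicular glutamate transporter, had a log2 fold change of -0.35 (edgeR's adjusted p = 0.273), and Srr, the enzyme that makes D-serine, one of -0.13. Among 26 kinases, phosphatases and calcium sensors, 20 were negative with a median of -0.05. Rasgrf2, a calcium-responsive exchange factor for Ras, had a log2 fold change of -0.20 (edgeR's adjusted p = 0.103). Over the 10 fits without one mouse, its adjusted p ranged from 0.0447 (without DHT replicate 2) to 0.226. Nos1, the neuronal nitric oxide synthase that NMDA receptor calcium activates, had a log2 fold change of -0.20 and an edgeR adjusted p of 0.251. Of the 18 alternatives, run with edgeR or DESeq2, 2 had an adjusted p under 0.05 for Slc7a10, 3 for Rasgrf2 and 1 for Nos1. The lowest were 0.0126, 0.0444 and 0.0409. Camk2a, a subunit gene of the kinase that NMDA receptor calcium activates, was at 3143 ± 227 CPM in void mice and 3103 ± 464 in DHT mice, with -0.02 as log2 fold change.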

How the data were processed

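Bulk RNA-seq was analysed in 10 hippocampal libraries, 5 void and 5 DHT, grouped by the sample titles. Per the study's methods, reads were filtered with HTStream, aligned with STAR and counted per gene; the authors deposited raw counts without normalization. The methods name mm10, whereas the submitters' processing notes name mm39 (STAR 2.7.10b, DESeq2 1.42.0), so coordinates here come only from GENCODE M21 (GRCm38) matches. That annotation also gave symbols, lengths and GC content (98.1% of tested genes) and may differ from the one used for counting.

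The deposited counts went into edgeR 4.0.16 (R 4.3.3) with TMM, filterByExpr by group, the quasi-likelihood test over 17622 genes and Benjamini-Hochberg adjustment, called at 0.05. The standard error was taken as the size of a log2 fold change over the root of its F. Log2 CPM used a prior count of 2. The GC content offsets are a lowess curve (span 0.3) of log2 CPM deviations per library.

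Alternatives were DESeq2, other scalings and filters, a choroid plexus covariate, GC content offsets and each mouse left out. Members and lists were chosen with earlier results of these data known. From each partner list the 4 called genes of lowest p, or at least 2, were to be named; Neto1, Neto2, Srr, Camk2a, Grin2d, Grin3b and Grid1 were added for their function after their values were seen. The scripts were tested on simulated data. Some single items are not reported here.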

Additional observations from a re-analysis of the deposited data

Results flagged for a closer look

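Of 50 groups of 5 mice examined for a single mouse that stands apart (the members, the named partner genes and the ratios), 1 was past the 95% limit of 0.71 for the gap to the nearest mouse as a share of the group's range, where chance gives about 2.5. It was Grin3a, for which DHT replicate 1 was lowest at a ratio of 0.884. The same mouse was lowest of all mice for Grik3, Grik1 and Grik2, at 51.4, 13.2 and 83.0 CPM. It also had the lowest sums of pan-neuron and inhibitory neuron markers, 9519 and 661 CPM. Its sum of excitatory neuron markers, 2043 CPM, lay inside the void range. The part of these sums in its receptor values was not tested.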

How the results depend on the processing

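No paired analysis was possible: littermates were randomized to treatment per the study's methods, but the labels give no litter or pair. Only 1 replicate number occurs in both groups. No member was called higher under any alternative run. The number called lower, 0, became 1 with DESeq2, 2 with GC content offsets (added after seeing the data) and 2 at an unadjusted p under 0.05, and was 0 in all 10 fits without one mouse. Over all genes, the number called lower also went from 46 to 233 with DESeq2 and to 300 with GC content offsets. The number of partner genes called higher, 0, became 2 with scaling to neuron markers (all genes from 920 to 1774) and 2 at an unadjusted p, and lay between 0 and 1 when a mouse was dropped. The number of partner genes called lower, 0, became 7 with DESeq2, 4 with GC content offsets and 12 at an unadjusted p, and lay between 0 and 1 when a mouse was dropped. With scaling to neuron markers, the sign of the log2 fold change turned for Grin1 (0.0900), Grin2b (0.00299) and Grik4 (0.0772). With the choroid plexus covariate it turned for Grik1 (0.0932), Grik5 (-0.0916) and Slc17a6 (0.0683), and in that fit 0 genes were called in all, the choroid plexus sums of both groups not overlapping. The covariate also moved Grik4 to -0.360, Grin2a to -0.267, Grin2b to -0.199, Grin1 to -0.114, Grin3a to -0.173 and Grik3 to -0.158. Scaling to neuron markers moved Grin2a to -0.0254, Grik1 to -0.0386, Grik2 to -0.0112 and Grin2c to 0.344, and GC content offsets moved Grin2c to 0.138 and Grik2 to -0.0844. Grik5 also turned with DESeq2 (-0.0174), DESeq2 size factors (-0.0183), no filter beyond 1 count (-0.00407) and GC content offsets (-0.0851). When a mouse was dropped, the values ranged from -0.146 to 0.0249 for Grin1, from -0.132 to 0.0336 for Grik4 and from -0.136 to 0.0736 for Grik5. With a mouse dropped, the ratio differences ranged from -0.0840 to 0.0322 for Grik1 to Grik2, from -0.0246 to 0.226 for Grik5 to Grik2 and from -0.0873 to 0.0693 for Grik4 to Grik5. For these shifts the cause was not tested. Raw counts of 484 to 68305 per member and mouse make counting error small beside the spread between mice.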

Other observations

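The genes whose log2 CPM, centred within groups, followed a member most closely over the 10 mice were looked up among 17621 others for Grin1, Grik2 and Grin3a, as a description with no test. For Grin1 they were Sec14l1, Lmtk3 and Coro7, with Pearson correlations of 0.990, 0.990 and 0.989 and a Spearman correlation of 0.988 each. For Grik2 they were the cannabinoid receptor gene Cnr1, the channel gene Trpc1 and the synaptic adhesion gene Nlgn1, at 0.939, 0.936 and 0.925 (Pearson) and 0.915, 0.964 and 0.903 (Spearman). For Grin3a they were Gm5900, Caln1 and Gm12408, at 0.954, 0.937 and 0.936 (Pearson) and 0.721, 0.915 and 0.770 (Spearman). Of these 9 genes, Caln1 was the only one called by edgeR's quasi-likelihood test, with a log2 fold change of -0.24 and an adjusted p of 0.0395. The log2 CPM behind these correlations had no offsets for GC content, and the part of base composition in them was not tested. For Grin3a, DHT replicate 1 stood far below the other DHT mice, and the part of that mouse in the correlations was not tested.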
